A study of Mus musculus with 36 samples.

Results

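Atf3, Klf6, Fos, Egr1 and Jun encode transcription factors of the immediate-early class, and their 5 transcripts were followed through hyperosmotic stress and recovery in mouse embryonic fibroblasts. The 5 were chosen by transcript identifier (ENSMUST00000027941, ENSMUST00000000080, ENSMUST00000021674, ENSMUST00000064795 and ENSMUST00000107094, in that order) out of 17478 transcripts listed in either assay. The choice was made with earlier results of these data known, among them the levels after recovery, so the members' own values are given as a description without p-values. The gene names come with that choice, since the deposited lists hold identifiers only. The coding lengths behind the footprint values, 182 codons with the stop for Atf3, 319 for Klf6, 381 for Fos, 534 for Egr1 and 335 for Jun, equalled the lengths given with the choice for the 4 transcripts for which one was given. All 5 passed the filter on low values in both assays.

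Immediate-early genes are transcribed within minutes of a stimulus, without the need for new protein synthesis, and most of their mRNAs are short-lived. Fos and Jun are the classical partners of AP-1, a dimer of basic leucine zipper proteins. Atf3, another basic leucine zipper protein of the ATF/CREB family, is known as a target of stress signalling and of the integrated stress response. Egr1 and Klf6 are zinc-finger proteins that bind GC-rich DNA, and Egr1 is a standard marker of growth factor and MAP kinase signalling in fibroblasts.

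The cells were C57BL/6J embryonic fibroblasts in all groups, and the unstressed group stayed in its normal medium. Stress was applied by adding sorbitol to the medium, for 2 h to 500, 600 or 700 mOsm (the last called long stress) or for 15 min to 700 mOsm (short stress), and each 700 mOsm exposure was also followed by recovery for 15 min or 2 h. Each of the 9 conditions had 2 ribosome footprint libraries and 2 libraries of cytoplasmic RNA, 36 in all. Plates were pooled within a sample, nuclear RNA was not measured, and cycloheximide, which holds ribosomes on mRNA, was in the lysis buffer. Fibroblast and other cell type markers could not be looked up by identifier, so the labelled cell type was not checked.

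Footprint libraries held 734083 to 9124787 reads, the fewest at 700 mOsm without recovery, and RNA libraries 6851958 to 55262396. The 2 footprint libraries of a condition differed hardly beyond counting noise (chi-square per degree of freedom 1.005 to 1.085) and were counted as 1 sample, so footprint differences have no replicate check and their intervals cover counting error only. RNA pairs differed by more (3.444 to 47.083) and were kept as n = 2. Whether they came from different cultures is not in the labels, so the RNA tests rest on a spread between libraries that may be technical. In bulk libraries, fewer cells with a transcript and less of it per cell cannot be told apart. Levels are RPKM for footprints and FPKM for RNA, both per length, scaled to the typical abundant transcript, and the scaling moved footprints relative to unstressed cells by 0.56 and 0.47 on the log2 scale at 700 mOsm for 15 min and 2 h and by -0.12 at 600 mOsm. Elsewhere it moved either assay by less than 0.1.

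The labels of 1 pair of RNA groups are in doubt. The RNA libraries labelled as 2 h of recovery from short stress and those labelled as 15 min of recovery from long stress come with list names that point to each other, while the footprint names and labels match. Across 8446 transcripts, the difference between these conditions in footprints and the same difference in RNA as labelled had a Pearson r of -0.55 and a Spearman rho of -0.52, a description across transcripts that share libraries. For Egr1, the footprint difference of short minus long was -2.32 and the RNA difference 2.29 on the log2 scale. For Fos these were -3.14 and 2.22, for Jun -1.66 and 2.45, for Atf3 2.49 and -0.86, and for Klf6 -0.53 and -0.11. The sign was thus opposite between the assays for 4 of the 5 transcripts. The share of all transcripts with opposite signs was not counted, so this is not read as a trait of the members. RNA values of these groups are given as labelled, and no translational efficiency was computed from them.

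The promoters are shown because the 5 transcripts reached their highest level in the same condition. The windows hold the 150 bases before the RefSeq start of the gene on GRCm38.p6, read along the gene from 5′ to 3′, and capitals mark the motifs found. Atf3 lies at chr1:191183334-191183483 on the minus strand, Klf6 at chr13:5861339-5861488 on the plus strand, Fos at chr12:85473740-85473889 on the plus strand and Jun at chr4:95052223-95052372 on the minus strand. Egr1 is not shown.
Atf3: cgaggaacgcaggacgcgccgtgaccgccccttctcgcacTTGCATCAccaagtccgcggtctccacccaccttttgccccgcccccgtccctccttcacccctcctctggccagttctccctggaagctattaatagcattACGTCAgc
Klf6: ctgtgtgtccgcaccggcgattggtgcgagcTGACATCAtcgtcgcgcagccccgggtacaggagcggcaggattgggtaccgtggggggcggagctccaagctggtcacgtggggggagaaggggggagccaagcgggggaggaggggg
Fos: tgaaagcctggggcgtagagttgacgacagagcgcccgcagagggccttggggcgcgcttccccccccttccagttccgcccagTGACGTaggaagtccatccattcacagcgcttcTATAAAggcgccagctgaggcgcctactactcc
Jun: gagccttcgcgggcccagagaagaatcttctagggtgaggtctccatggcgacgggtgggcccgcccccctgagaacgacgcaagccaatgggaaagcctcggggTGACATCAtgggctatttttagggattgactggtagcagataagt

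Sequences related to the binding site of ATF/CREB and AP-1 proteins were marked in the 4 windows shown, by several motifs. TGACATCA began 119 bases before the start of Klf6 and 45 bases before that of Jun, and 2.32% of 32851 mouse promoter windows of this length held it on either strand. Atf3 had TTGCATCA 110 bases before its start, a motif held by 0.536% of windows. TGACGT, in 5.15% of windows, lay 66 bases before the start of Fos and, on the other strand, 8 bases before that of Atf3. Fos also had TATAAA 33 bases before its start, which 7.57% of windows held. The full element TGACGTCA (1.36% of windows), which contains TGACGT, was not in these 4 windows, nor were TGANTCA (4.24%), the CArG box of serum response factor (0.916%) or the tonicity element of NFAT5 (1.3%). Bases further upstream were not searched, so sites there are not excluded. The motifs were chosen after the sequences had been seen, so nothing is read from their presence in the 4 windows. The share of all windows that hold any of them was not counted, and a match is a match of letters only.

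In unstressed cells the 5 transcripts covered a wide range of levels. Klf6 was highest, with scaled footprint values of 86.6 and 88.6 and scaled RNA values of 38.7 and 34.0 in the 2 libraries. Egr1 stood at 43.4 and 41.9 in footprints and 9.10 and 11.2 in RNA. Jun stood close to it in RNA, at 8.02 and 9.82, so that the pairs overlapped, and lower in footprints, at 28.8 and 26.4. Atf3 and Fos were the scarcest, with few footprint reads and 68 to 146 RNA reads in a library. Atf3 had footprint values of 2.57 and 4.95 from 11 and 22 reads and RNA values of 1.29 and 1.81. Fos had footprint values of 1.23 and 0.967 from 11 and 9 reads and RNA values of 0.855 and 0.793. Together the 5 transcripts took 0.0199% and 0.0196% of the footprint reads of the unstressed libraries (95% Wilson intervals 0.0189 to 0.0209 and 0.0186 to 0.0206) and 0.0239% and 0.0235% of the RNA reads.

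**Figure D1:**
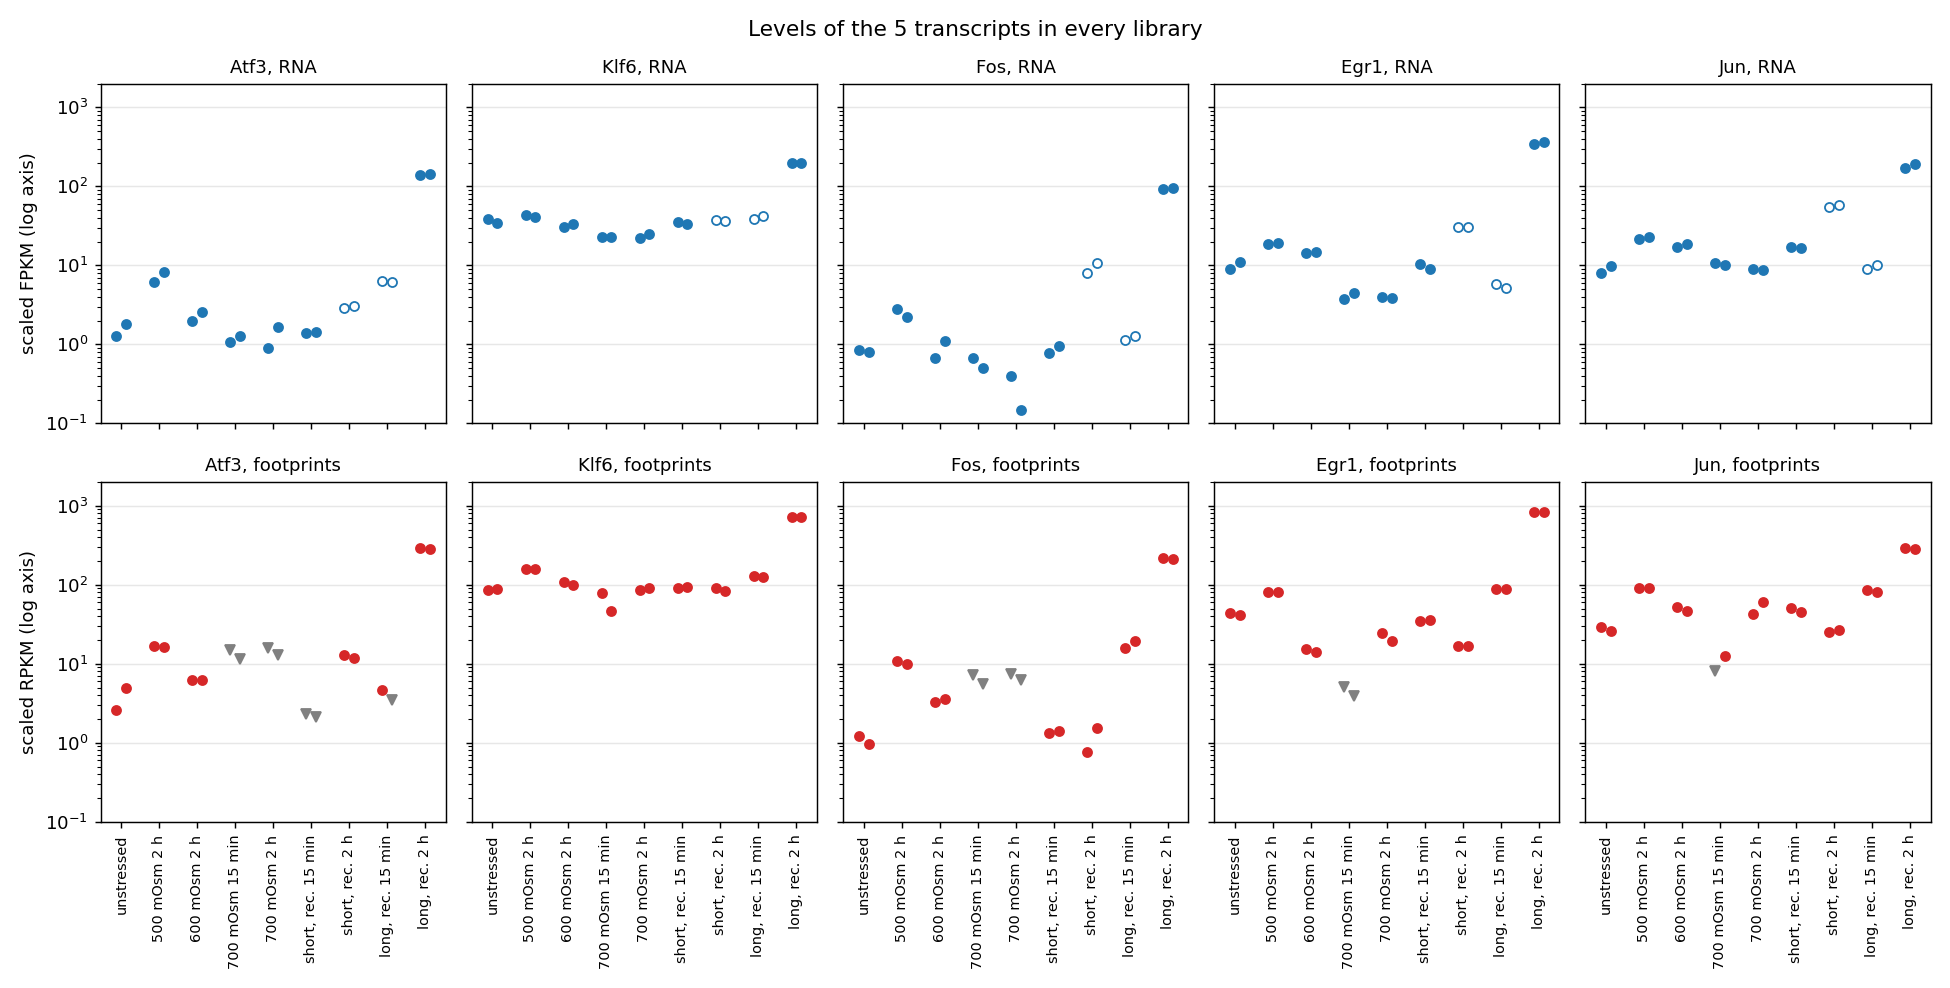
Scaled FPKM (RNA, blue, upper row) and scaled RPKM (footprints, red, lower row) of each transcript in every library, on a log axis, with 2 points per condition. Grey triangles mark unlisted footprint values at the level that 5 reads would give, open blue circles mark the RNA groups whose labels are in doubt, "short" and "long" are 15 min and 2 h at 700 mOsm, and "rec." is recovery. All 5 transcripts have their highest points at 2 h of recovery from long stress, where Egr1 footprints reach 839 and 846.

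After 2 h of recovery from long stress all 5 transcripts were at their highest level of the 9 conditions, in RNA and in footprints. Fos reached RNA values of 93.7 and 94.5 and footprint values of 218 and 215. Atf3 reached 141 and 146 in RNA and 295 and 287 in footprints. Both had been the scarcest of the 5 in unstressed cells. Egr1 had 345 and 363 in RNA and 839 and 846 in footprints, the top of the group in both assays. Jun had 173 and 190 in RNA and 289 and 287 in footprints. Klf6, the most abundant of the 5 before stress, had 200.0 and 199.7 in RNA and 714 and 720 in footprints. In neither assay did a library of any other condition overlap with these values for any of the 5. The share of all transcripts for which this holds was not counted, and the members were picked with these levels known.

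Measured against unstressed cells, the footprint ratio was 198 for Fos (95% counting interval 128 to 324) and 76.9 for Atf3 (54.5 to 112). Both rest on few unstressed reads, 20 for Fos and 33 for Atf3 over the pair of libraries. The ratio was 19.8 for Egr1 (18.6 to 21), 10.4 for Jun (9.45 to 11.6) and 8.18 for Klf6 (7.71 to 8.68). Among the 8849 transcripts kept for footprints, ordered by the difference of log2(scaled value + 1), Fos ranked 1, Atf3 2, Egr1 12, Jun 24 and Klf6 31. All 5 were at least 2-fold higher, where 3.89% of all transcripts were. Nothing is read from that share, since the members were picked with such values known.

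The RNA differences on the log2(scaled FPKM + 1) scale were 5.83 for Atf3 (SE 0.181), 5.70 for Fos (SE 0.197), 5.00 for Egr1 (SE 0.129), 4.21 for Jun (SE 0.107) and 2.43 for Klf6 (SE 0.093). They ranked 1, 2, 3, 7 and 41 of 9275 transcripts. In limma (Benjamini-Hochberg adjusted at 0.05 over all transcripts) 13.9% of all transcripts were called higher, the 5 members among them, and since these values were known when the members were picked, nothing is read from their calls. The median difference over all transcripts was 0.02 for RNA and -0.13 for footprints. The share of all reads that fell on the 5 transcripts was 0.288% and 0.29% of footprint reads and 0.342% and 0.356% of RNA reads in this condition.

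**Figure D2:**
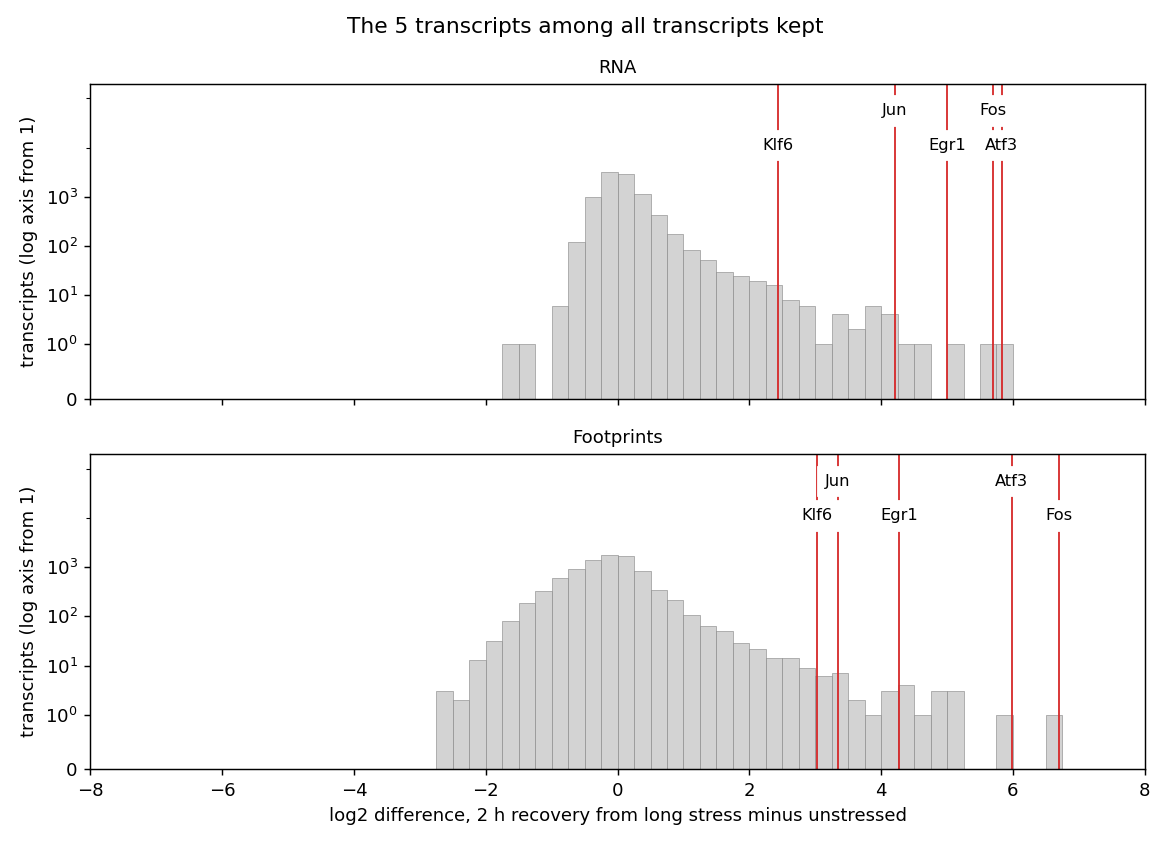
Number of transcripts (log axis from 1) by log2 difference between 2 h of recovery from long stress and unstressed cells, for 9275 RNA and 8849 footprint transcripts, with red lines at the 5 members. The members lie in the right tail, from 2.43 (Klf6) to 5.83 (Atf3) in RNA and from 3.02 (Klf6) to 6.70 (Fos) in footprints.

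Against cells still at 700 mOsm for 2 h, the same recovery gave RNA differences of 6.23 for Fos (SE 0.158), 6.16 for Egr1 (SE 0.104), 6.01 for Atf3 (SE 0.145), 4.21 for Jun (SE 0.0862) and 3.03 for Klf6 (SE 0.0749). All 5 were called higher, as were 42.1% of all transcripts. The footprint ratio was 38.7 for Egr1 (28.9 to 53.1), 8.05 for Klf6 (6.66 to 9.8) and 5.5 for Jun (4.32 to 7.1). Fos and Atf3 were not listed at 700 mOsm, so no ratio is given. All 5 were at least 2-fold higher in footprints, where 43.1% of all transcripts were, and this comparison shares its recovery libraries with the one against unstressed cells.

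At 500 mOsm for 2 h, the mildest stress, all 5 transcripts had more footprints than in unstressed cells. Fos had footprint values of 10.9 and 9.94, a ratio of 9.5 (5.88 to 16.1). Atf3 had 16.8 and 16.3, a ratio of 4.38 (2.91 to 6.74). Jun had 92.0 and 91.0, a ratio of 3.32 (2.96 to 3.72). These 3, the basic leucine zipper members, were at least 2-fold higher, where 0.746% of all transcripts were. Egr1, with 82.1 and 82.2, had a ratio of 1.93 (1.78 to 2.09), and Klf6, with 157 and 159, a ratio of 1.8 (1.67 to 1.94), just short of 2-fold. With the values as deposited 4 members were at least 2-fold higher, where 0.854% of all transcripts were.

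RNA at 500 mOsm was called higher for 4 of the 5, where 1.55% of all transcripts were called higher. Atf3 had RNA values of 6.08 and 8.27, a log2 difference of 1.67 (SE 0.196). Jun had 21.5 and 23.1, a difference of 1.24 (SE 0.116). Fos had 2.78 and 2.24, a difference of 0.94 (SE 0.214), and Egr1 18.5 and 19.1, a difference of 0.84 (SE 0.14). The libraries of both groups were separate for each of these. The share of all transcripts with separate libraries was not counted, so nothing is read from that separation. Klf6, at 43.7 and 40.5, had a difference of 0.21 (SE 0.101), which missed the threshold. Klf6 was called higher with voom on the recovered reads (0.20) and without replicate 1 of the unstressed cells (0.30), where 8.09% and 2.25% of all transcripts were. Fos was not called without replicate 1 of 500 mOsm (0.83).

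At 600 mOsm for 2 h the RNA and the footprints of Egr1 lay on opposite sides of unstressed cells. Its RNA was higher than in unstressed cells, at 14.4 and 14.7, a log2 difference of 0.49 (SE 0.136). Its footprints were lower, at 15.3 and 14.2, a ratio of 0.347 (0.289 to 0.414). Jun RNA was also called higher, at 17.2 and 18.4 (difference 0.93, SE 0.112), and with Egr1 made 2 of 5, where 3.87% of all transcripts were called higher. Egr1 was not called without replicate 2 of 600 mOsm (0.47). Jun footprints stood at 52.1 and 46.9, a ratio of 1.8 (1.55 to 2.09).

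Fos was the 1 member with footprints at least 2-fold higher at 600 mOsm, where 3.74% of all transcripts were, at 3.29 and 3.60 from 12 and 11 reads (ratio 3.13, 1.65 to 6.02). Its RNA, at 0.664 and 1.09, overlapped with unstressed cells. Egr1 was the 1 member at least 2-fold lower, where 35.4% of all transcripts were, and the median of all transcripts was -0.41. Atf3 had a footprint ratio of 1.65 (0.898 to 2.97) and an RNA difference of 0.37 (SE 0.19), and Klf6 a ratio of 1.19 (1.08 to 1.31) and an RNA difference of -0.18 (SE 0.0977). Without replicate 2 of the unstressed cells Atf3 RNA was called higher (0.51) and Klf6 RNA lower (-0.27), where 17.1% and 20.5% of all transcripts were.

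At 700 mOsm without recovery the 5 transcripts took the smallest share of footprint reads, 0.00546% and 0.00421% after 15 min and 0.0131% and 0.014% after 2 h. Footprint lists seldom hold a transcript with fewer than 5 reads, so an unlisted transcript need not be at 0. Egr1 was not listed in either library after 15 min, where 5 reads would have given scaled values of 5.16 and 3.95, far under the 43.4 and 41.9 of unstressed cells. After 2 h it was listed again, at 24.7 and 19.4 from 23 and 22 reads, a ratio of 0.51 (0.37 to 0.687). Jun was unlisted in 1 library after 15 min and at 12.6 from 10 reads in the other. The pooled reads, with the unlisted library at 0, gave a ratio of 0.258 (0.123 to 0.48).

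After 2 h at 700 mOsm Jun stood at 42.7 and 60.4, a ratio of 1.9 (1.45 to 2.46) to unstressed cells. The rise was smaller with the values as deposited, 33.4 and 46.5 beside 31.16 and 28.35 in unstressed cells. Klf6 was listed throughout, at 77.7 and 46.3 after 15 min (ratio 0.684, 0.539 to 0.857) and 86.2 and 91.4 after 2 h (ratio 1.02, 0.829 to 1.24), a log2 difference of 0.02 that was -0.45 with the values as deposited. Atf3 and Fos were unlisted in all 4 of these libraries. There 5 reads would have given 11.6 to 15.7 for Atf3 and 5.53 to 7.51 for Fos, above their unstressed means of 3.76 and 1.1, so levels below those of unstressed cells could not be detected at this depth. The levels at 500 mOsm, 16.6 for Atf3 and 10.4 for Fos, lie above these values. The margin is small, most of all for Atf3, so counting error alone could leave such levels unlisted.

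With unlisted values at 0, 4 of the 5 were at least 2-fold lower after 15 min, where 48.9% of all transcripts were, and with unlisted values set to 5 reads 2 were, Egr1 and Jun, beside 29.3%. After 2 h these counts were 2 beside 47.8%, and 0 beside 29.1%. With the values as deposited 5 were lower after 15 min, beside 57.2%, and 3 after 2 h, beside 56.7%. RNA showed 2 members called lower at each time, where 30.5% and 31% of all transcripts were. Egr1 RNA stood at 3.76 and 4.50 after 15 min and 4.01 and 3.90 after 2 h, log2 differences of -1.11 (SE 0.132) and -1.16 (SE 0.151). Klf6 RNA stood at 23.0 and 22.7 and then 22.2 and 24.96, differences of -0.64 (SE 0.0949) and -0.60 (SE 0.109). For both transcripts all 4 stressed libraries lay below both unstressed ones. How many of all transcripts did so was not counted, so nothing is read from it.

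Jun RNA at 700 mOsm lay near its unstressed level, at 10.8 and 10.0 after 15 min and 9.08 and 8.69 after 2 h, differences of 0.21 (SE 0.109) and 0.00 (SE 0.125). In the fit over all libraries 19.3% of all transcripts were called higher after 15 min. Jun was called higher there with upper-quartile scaling (0.31), with equal weights (0.21) and without replicate 2 of the unstressed cells (0.34), where 25.7%, 23.7% and 24.8% of all transcripts were. Atf3 RNA had differences of -0.23 (SE 0.184) and -0.18 (SE 0.212). The first was called lower without replicate 1 of the unstressed cells (-0.37), where 37.1% of all transcripts were, and the second was 0.06 without replicate 1 of 700 mOsm for 2 h. Fos RNA, with differences of -0.20 (SE 0.201) and -0.53 (SE 0.231), missed the threshold at both times, and its libraries after 2 h held 19 and 2 reads. After 2 h Fos was called lower with a pseudocount of 0.25 (-1.08), with voom (-1.42), with equal weights (-0.53) and without replicate 1 (-0.50) or 2 (-0.55) of the unstressed cells or replicate 1 of 700 mOsm (-0.67), where 31% to 38.3% of all transcripts were.

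**Figure D3:**
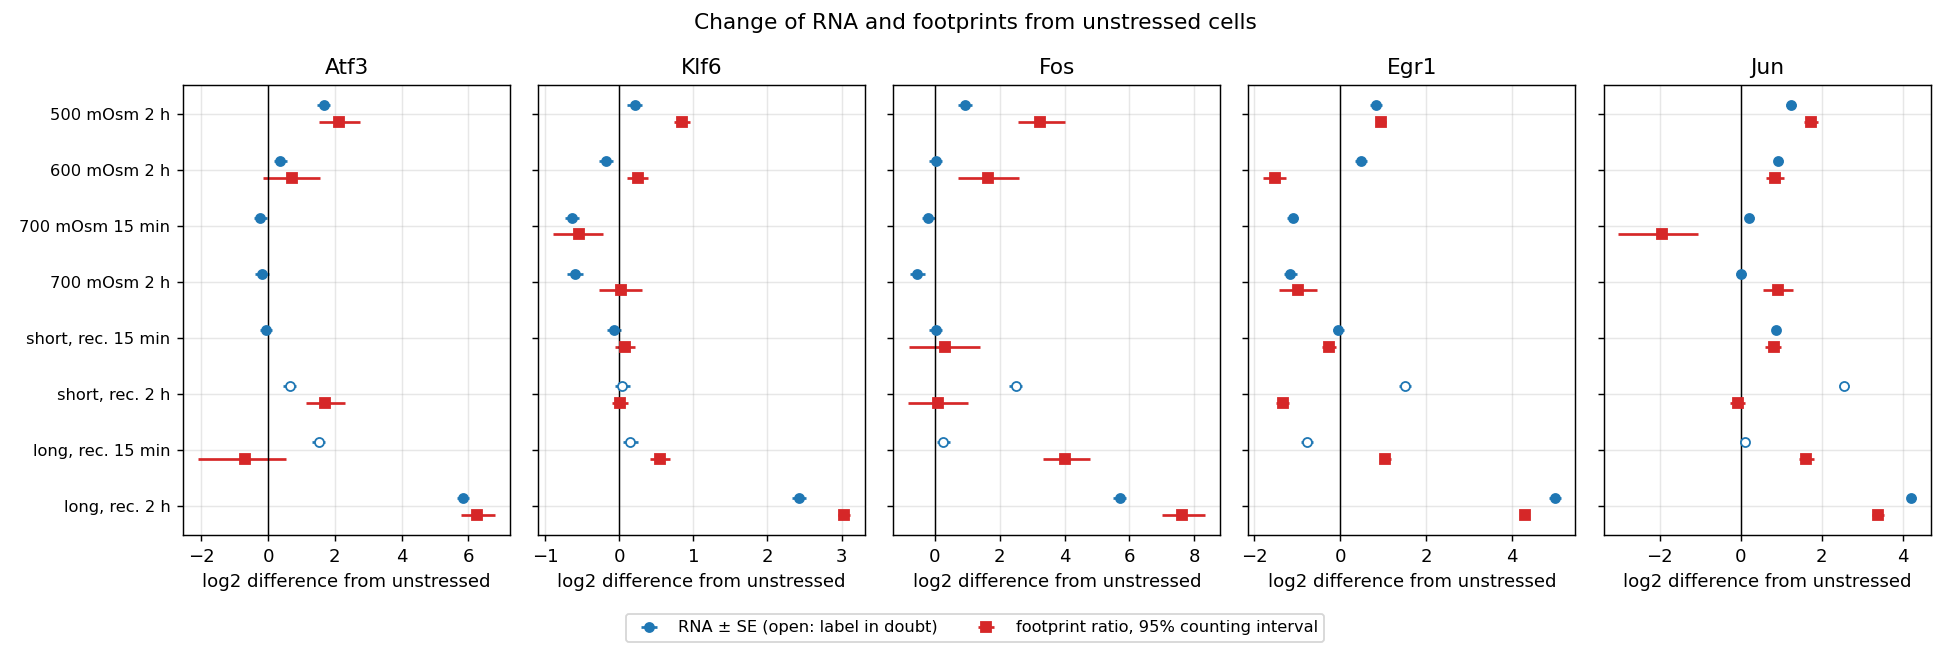
Log2 difference from unstressed cells for RNA (blue, limma estimate with its SE) and for footprints (red, log2 of the ratio with its 95% counting interval) in 8 conditions, 1 panel per transcript, each with its own horizontal scale. No red square is drawn where neither footprint library listed the transcript, and open circles mark the RNA groups whose labels are in doubt. Egr1 at 600 mOsm has RNA at 0.49 and footprints on the other side of 0.

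Egr1 footprints stood at 35.3 and 35.7 after 15 min of recovery from short stress, a ratio of 0.831 (0.745 to 0.927) to unstressed cells. Its RNA, at 10.5 and 9.10, overlapped with the unstressed libraries and was 1.07 (SE 0.0712) above that of cells at 700 mOsm for 15 min. Jun was the 1 member whose RNA was called higher than in unstressed cells, where 4.39% of all transcripts were, at 17.3 and 16.8 (difference 0.87, SE 0.106). Its footprints, at 50.9 and 45.6, had a ratio of 1.75 (1.52 to 2). Klf6 footprints, at 91.7 and 93.7, had a ratio of 1.06 (0.966 to 1.16), and Fos, at 1.32 and 1.41 from 6 and 7 reads, one of 1.25 (0.572 to 2.64).

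Atf3 footprints were not listed after this short recovery, where 5 reads would have given 2.31 and 2.11. Counted as 0 it was the 1 member at least 2-fold lower, where 0.633% of all transcripts were, and with unlisted values set to 5 reads none was, beside 0.328%. Atf3 RNA stood at 1.41 and 1.43, inside the range of the unstressed libraries. Compared with 700 mOsm for 15 min, RNA was called higher for Klf6, Egr1 and Jun, 3 of 5, where 40.9% of all transcripts were. Fos was called higher as well with the values as deposited (0.26) and with a pseudocount of 0.25 (0.42), where 45.7% and 40.8% were. Footprints of Fos, Egr1 and Jun were at least 2-fold higher in that comparison, where 48.3% were, and with unlisted values set to 5 reads 2 were, where 28.4% were.

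After 2 h of recovery from short stress, footprints of Egr1 were lower than in unstressed cells while those of Atf3 were higher. Egr1 stood at 17.1 and 16.7 from 251 and 256 reads, a ratio of 0.396 (0.355 to 0.44) and rank 8840 of 8849 from the top. It was the 1 member at least 2-fold lower, where 0.271% of all transcripts were. Atf3 stood at 12.96 and 11.7 from 65 and 61 reads, a ratio of 3.25 (2.2 to 4.93) and rank 16. It was the 1 member at least 2-fold higher, where 0.689% were. Jun, at 25.1 and 27.2, had a ratio of 0.948 (0.832 to 1.08), Klf6, at 92.5 and 84.5, one of 1.01 (0.937 to 1.09), and Fos, at 0.762 and 1.56, one of 1.07 (0.568 to 2.02).

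In the RNA libraries labelled as this condition, Jun stood at 55.2 and 58.3, Egr1 at 30.7 and 30.6, Fos at 7.92 and 10.8, Atf3 at 2.92 and 3.05 and Klf6 at 37.9 and 36.8. Against unstressed cells the RNA differences were 2.55 (SE 0.116) for Jun, 2.49 (SE 0.214) for Fos, 1.51 (SE 0.14) for Egr1, 0.65 (SE 0.196) for Atf3 and 0.04 (SE 0.101) for Klf6. In this comparison 4 of the 5 were called higher, where 4.92% of all transcripts were. Atf3 was not called without the filter on low values (0.65) or without replicate 2 of this group (0.63). Against 700 mOsm for 15 min all 5 were called higher, where 33.5% of all transcripts were. Egr1 thus had higher RNA and lower footprints in libraries with the same label, and the part of the label doubt in this was not tested.

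After 15 min of recovery from long stress, footprints of Fos, Jun and Egr1 were at least 2-fold higher than in unstressed cells, where 1.79% of all transcripts were. Fos stood at 16.1 and 19.6 from 51 and 59 reads, a ratio of 16.2 (10 to 27.6) and rank 9. Jun stood at 87.0 and 82.2, a ratio of 3.07 (2.69 to 3.5), and Egr1 at 88.7 and 88.2, a ratio of 2.07 (1.89 to 2.28). Klf6, at 131 and 126, had a ratio of 1.47 (1.33 to 1.61). Atf3 did not share this: it had 4.61 from 7 reads in 1 library and was unlisted in the other, with a ratio of 0.625 (0.233 to 1.44). The log2 difference was -0.96 with the unlisted library at 0 and 0.28 without it.

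The RNA libraries labelled as this condition gave another order. Atf3 stood at 6.37 and 6.15 and was the 1 member called higher than in unstressed cells, with a difference of 1.52 (SE 0.193), where 8.09% of all transcripts were. Without replicate 1 of the unstressed cells Klf6 was also called higher (0.24), where 20.1% of all transcripts were. Egr1 stood at 5.75 and 5.20 and was the 1 member called lower, with a difference of -0.78 (SE 0.138), where 6.27% were. Jun, at 9.08 and 10.1, Fos, at 1.13 and 1.27, and Klf6, at 38.1 and 42.6, had differences of 0.10 (SE 0.114), 0.27 (SE 0.21) and 0.15 (SE 0.0993) and passed in neither direction. Against 700 mOsm for 2 h 4 of the 5 were called higher, all but Jun, where 38.8% of all transcripts were.

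In footprints, Egr1 after this recovery was 4.06 times its level at 700 mOsm for 2 h (3.01 to 5.62), Jun 1.61 times (1.25 to 2.11) and Klf6 1.44 times (1.18 to 1.78). Atf3, Fos and Egr1 were at least 2-fold higher in that comparison, where 42.3% of all transcripts were, and with unlisted values set to 5 reads 2 were, where 21.9% were. With the values as deposited all 5 were, where 53.3% of all transcripts were. The same comparison at 2 h after short stress gave 4 members at least 2-fold higher than at 700 mOsm for 15 min, where 48.4% of all transcripts were, and 2 with unlisted values set to 5 reads, where 28.7% were.

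Translational efficiency, the log2(scaled footprints + 1) less the log2(scaled RNA + 1), sets ribosome occupancy against the amount of mRNA. In unstressed cells it was 1.98 for Egr1, 1.53 for Jun, 1.25 for Klf6, 0.86 for Atf3 and 0.20 for Fos, beside a median of 0.65 over 8446 transcripts. The added 1 pulls the values of Fos and Atf3 towards 0 in unstressed cells, where both levels were low. At 500 mOsm the efficiency of Fos was 1.50 above that of unstressed cells, the 1 member at least 2-fold higher, where 0.343% of all transcripts were. The other 4 differed by 0.09 (Egr1) to 0.64 (Klf6), while the median of all transcripts was -0.14.

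At 600 mOsm the efficiency of Egr1 was 0.02, a difference of -1.96 from unstressed cells and the 1 member at least 2-fold lower, where 35.3% of all transcripts were, and the median difference was -0.45. Fos was the 1 member at least 2-fold higher, by 1.05, where 2.49% were, and it was no longer so without replicate 1 of 600 mOsm or without replicate 2 of the unstressed cells. Klf6 (0.42), Atf3 (0.29) and Jun (-0.11) differed less. At 700 mOsm for 2 h the 3 members with listed footprints, Jun (2.39), Egr1 (2.21) and Klf6 (1.87), had efficiencies above those of at least 82.1% of transcripts, beside a median of -0.20. This ranking includes transcripts with unlisted footprints at 0. In unstressed cells these members already stood above 81.5% (Jun), 90.4% (Egr1) and 73% (Klf6) of transcripts. With unlisted footprints at 0, 1 of the 5, Atf3, counted as at least 2-fold lower at 700 mOsm for 2 h, where 42.2% of all transcripts did. With unlisted values set to 5 reads none did, beside 23.6%. At 700 mOsm for 15 min 3 of the 5, Atf3, Egr1 and Jun, were at least 2-fold lower, where 47.3% were, and 2 with unlisted values set to 5 reads, beside 26.9%. After 15 min of recovery from short stress Atf3 was the 1 member at least 2-fold lower, where 0.521% were, and with unlisted values set to 5 reads none was, beside 0.403%.

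At 2 h of recovery from long stress none of the 5 had an efficiency 2-fold away from that of unstressed cells, where 0.616% of all transcripts passed that limit upward and 7.67% downward. The differences were 1.00 for Fos, 0.59 for Klf6, 0.15 for Atf3, -0.73 for Egr1 and -0.87 for Jun. Fos sat at the edge of the 2-fold limit and was past it with values as deposited, where 0.659% of all transcripts were. Without replicate 2 of the long recovery, or without replicate 1 of the unstressed cells, 1 member was at least 2-fold higher, and without replicate 2 of the unstressed cells 1 was at least 2-fold lower. The share of all transcripts was not counted for these left-out libraries, so nothing is read from these counts. The RNA levels of this condition were thus 2.43 to 5.83 above unstressed cells on the log2 scale, and the efficiencies at most 1.00 away.

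**Figure D4:**
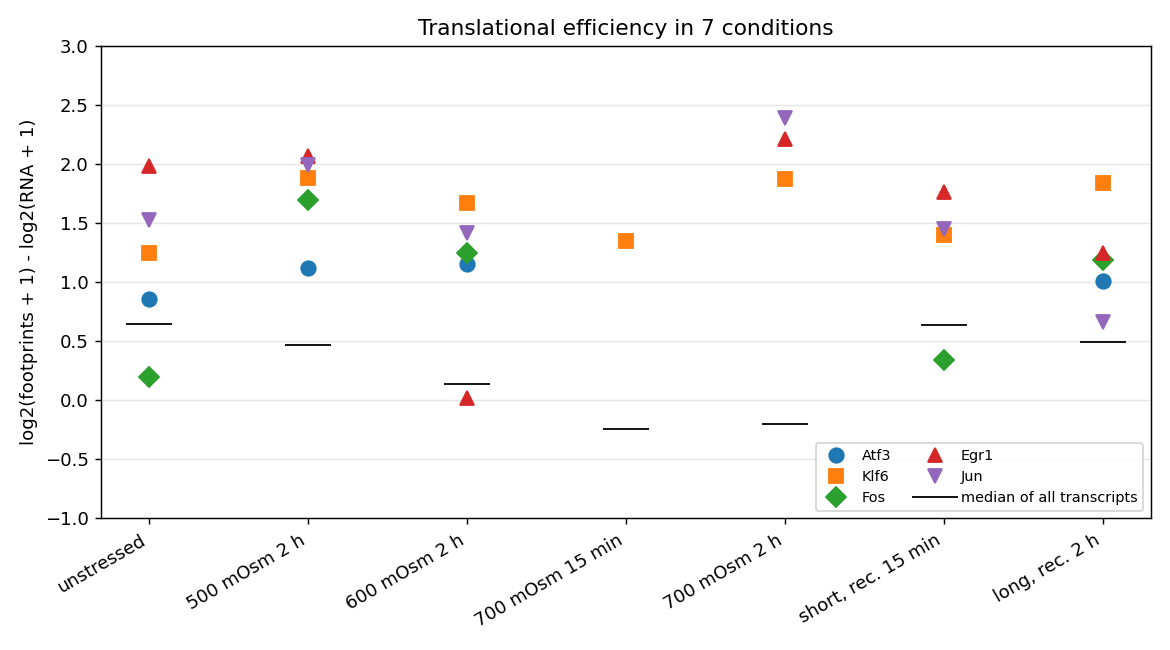
Translational efficiency on the log2 scale in the 7 conditions whose RNA labels are not in doubt, 1 symbol per transcript, with a black bar at the median over 8446 transcripts. Points are left out where a footprint library did not list the transcript. Egr1 goes from 1.98 in unstressed cells to 0.02 at 600 mOsm, beside medians of 0.65 and 0.14.

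The 5 transcripts resembled each other in RNA across the 18 libraries to different degrees, measured by Pearson r of log2(scaled FPKM + 1), a description over libraries of which 2 hold the long recovery. The pairs among Fos, Jun and Egr1 had r = 0.96, and for likeness to Jun, Fos ranked 1 and Egr1 2 among 9274 transcripts. For Egr1, Fos ranked 2 and Jun 4, and for Fos, Jun ranked 2 and Egr1 3. Atf3 and Klf6 had the highest r among the members, 0.97, with Klf6 at rank 7 for Atf3 and Atf3 at rank 12 for Klf6. The lowest value was that of Atf3 with Jun, 0.82. The members were picked with their high levels in the 2 long recovery libraries known, so nothing is read from these values and ranks. The transcript most like Atf3 outside the group was ENSMUST00000038107 (r = 0.987), with RNA levels of 27.2 ± 2.32 in unstressed cells and 107 ± 2.09 after the long recovery (SD, n = 2). That most like Fos was ENSMUST00000060427 (r = 0.980), at 43.8 ± 9.81 and 763 ± 45.5 (SD, n = 2).

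Over all libraries the span of RNA levels was widest for Fos, 0.147 to 94.5, and narrowest for Klf6, 22.2 to 200. Atf3 spanned 0.91 to 146, Egr1 3.76 to 363 and Jun 8.02 to 190. In footprints the listed values spanned 0.762 to 218 for Fos, 2.57 to 295 for Atf3, 14.2 to 846 for Egr1, 12.6 to 289 for Jun and 46.3 to 720 for Klf6. Klf6 was listed in all 18 footprint libraries, Jun in 17, Egr1 in 16, Fos in 14 and Atf3 in 11.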

How the data were processed

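By the names of the lists, which have no header, the authors deposited RPKM (reads scaled by length and library total) for footprints and FPKM (the same for fragments) for cytoplasmic RNA, 1 list per library. Per the submitters' processing notes, cutadapt, Bowtie and STAR and the genome GRCm38 were used. For their versions and roles, the annotation and the counting: not given in the sources used here. Read numbers were solved from the steps of the values and were whole for 100.0% of them within a relative tolerance of 1e-09, largely by construction. Intervals from them cover counting error only.

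Libraries were scaled by the median of their ratios to the geometric mean, over transcripts listed in all 18 libraries with a mean of at least 10 (4619 for footprints, 5705 for RNA). No change in total translation can be read from values scaled this way. Unlisted values were set to 0. The filter asked for a mean of 2 or more after scaling and kept 8849 of 11037 for footprints and 9275 of 17469 for RNA. Differences are of log2(scaled value + 1), a scale on which low transcripts appear to change less than they do. Footprint ratios are of reads pooled over the 2 libraries of a condition, set against their pooled library totals after scaling. Their counting intervals are exact binomial (95%).

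RNA was fitted with limma 3.58.1 in R 4.3.3 over all 18 libraries (group precision weights, mean-variance trend, two-sided, Benjamini-Hochberg at 0.05), tested on simulated data. Footprints and efficiency had no test, and called there means at least 2-fold. Python 3.11.15, NumPy 2.4.6, pandas 2.3.3 and SciPy 1.17.1 were used. All 5 members are described in full, and the 2 other identifiers printed are those most like Atf3 and Fos. The members and lists were chosen with earlier results of these data known. A list of further immediate-early genes and the cell type markers were not applied, because none of the tables used pairs these transcript identifiers with names. Alternatives were scaling, pseudocount, filter, weights, voom on the recovered reads, a replicate block, left-out libraries, limma on footprints as n = 2 and, added after the data were seen, unlisted footprints set to the value of 5 reads.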

Additional observations from a re-analysis of the deposited data

Results flagged for a closer look

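Members that lay on opposite sides of unstressed cells in related conditions, with every library of one condition above and every library of the other below, are given here. An unlisted library counts as below where the value of 5 reads would be below. The conditions share the unstressed libraries, and the difference was not tested in any of them. The rule was applied to the members only. The share of all transcripts that meet it was not counted, so nothing is read from a member meeting it. Klf6 RNA was 0.21 above unstressed cells at 500 mOsm and -0.18 at 600 mOsm on the log2 scale, 0.39 apart, and neither passed the threshold. Egr1 footprints were at 0.93 and -1.47 in the same conditions, 2.40 apart. Egr1 RNA was at 0.49 at 600 mOsm and -1.16 at 700 mOsm for 2 h, 1.65 apart. After 15 min of recovery, Egr1 footprints were at -0.26 following short stress and 1.03 following long stress, a difference of -1.29. After 2 h of recovery they were at -1.29 and 4.27, a difference of -5.56. Jun footprints were at -2.95 at 700 mOsm for 15 min, with its unlisted library at 0, and at 0.86 at 700 mOsm for 2 h, a difference of -3.81. As deposited, the Jun values at 700 mOsm for 2 h were 33.4 and 46.5, nearer to the 31.16 and 28.35 of unstressed cells. Atf3 footprints, unlisted after 15 min of recovery from short stress and set to 0, were at -2.20 there and at 1.53 after 2 h, a difference of -3.73.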

How the results depend on the processing

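No called RNA difference changed direction, nor did a called footprint difference among those recomputed. Footprint differences were recomputed only where both conditions had reads, and not with unlisted values at 5 reads. Efficiencies of single members were not recomputed. Atf3 and Fos were called lower at 700 mOsm only with unlisted values at 0. The level of 5 reads lies above their unstressed means there, so that direction is not established. Of 1008 recomputed differences of single members, 17 had another sign, for 12 differences that were not called, at most 0.18 in size in RNA. They included Fos RNA at 600 mOsm (0.03, and -0.13 without its replicate 2). Of the counts of called members recomputed under an alternative, 562 stayed within 1.5 times, and 38 did not. The 562 include counts that were 0 under both settings, so their number is no measure of stability. In RNA, members called higher at 600 mOsm went from 2 to 1 without its replicate 2, beside 2.66% of all transcripts (1 to 3 over left-out libraries). Members called lower there went from 0 to 1 with voom, beside 19.6% of all transcripts (0 to 1 over left-out libraries). Those called higher at 700 mOsm for 15 min went from 0 to 1 with upper-quartile scaling or equal weights (0 to 1 over left-out libraries), and those after 15 min of recovery from long stress ranged from 1 to 2. In footprints, limma with n = 2, with or without the replicate block, gave 5 higher at 500 mOsm in place of 3, 3 higher at 600 mOsm in place of 1, 1 lower at 700 mOsm for 2 h in place of 2, and 1 higher and 2 lower after 15 min of recovery from short stress in place of 0 and 1. This rule, a test with no minimum fold, called 21.3%, 24.4%, 50.2%, 11.2% and 16.6% of all transcripts without the block in these comparisons, and 21.3%, 24.5%, 50.4%, 11.1% and 16.7% with it.

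With unlisted values at 5 reads, members lower went from 4 to 2 at 700 mOsm for 15 min, from 2 to 0 at 700 mOsm for 2 h and from 1 to 0 after 15 min of recovery from short stress, and members higher after 2 h of recovery than at 700 mOsm for 15 min from 4 to 2. Values as deposited gave 5 in place of 3 higher after 15 min of recovery from long stress than at 700 mOsm for 2 h. Left-out libraries gave 0 to 1 higher and 1 to 2 lower at 700 mOsm for 2 h, and 0 to 1 lower after 15 min of recovery from long stress, where a pseudocount of 0.25 gave 1. For efficiency, left-out libraries gave 0 to 1 higher at 600 mOsm, at 700 mOsm for 2 h and at 2 h of recovery from long stress, and 0 to 1 lower at the last, where values as deposited gave 1 higher. At 700 mOsm for 2 h a pseudocount of 0.25 gave 2 lower and unlisted values at 5 reads 0, in place of 1, and after 15 min of recovery from short stress the latter gave 0 in place of 1. In footprints and efficiency, the share of all transcripts was not counted for left-out libraries or the pseudocount of 0.25. Nothing is therefore read from those counts of members. Beyond the construction of each alternative, the cause of the changes was not tested.

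Deviations of same-numbered RNA libraries had no common direction: over 36 pairs of conditions r was -0.31 to 0.31 (median 0.01), with 6 over 0.1. Some pairs of conditions thus deviated together and others in opposite directions. No pairing by number across all conditions was seen in RNA, which does not exclude it. RNA was not compared with footprint libraries of the same number. With the replicate block no count of called members in RNA left its range of 1.5 times. Depth limits Atf3 and Fos most, with 33 and 20 unstressed footprint reads.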
